A study of Mus musculus with 6 samples.

Results

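The strands of miR-126 (mmu-miR-126-3p and mmu-miR-126-5p) and the clustered mmu-miR-221 and mmu-miR-222 were followed in the aortas of 6 mice. These 4 assays were taken by their exact names from a quantitative real-time PCR table of 596 mouse miRNA assays, whatever their values. All mice were Apoe-/- females, 6 to 8 weeks old at the start of the diet, and all carried VE-Cadherin-CreERT2, a Tamoxifen-inducible Cre recombinase driven by an endothelial promoter. They received Tamoxifen on 5 days (2 mg per 20 g body weight) and were afterwards fed for 12 weeks with a diet rich in fat (21% crude fat, 0.15% cholesterol). In 3 mice (VE-Cadherin-CreERT2 Dicer1flox/flox Apoe-/-, EC-Dicerflox) both copies of the Dicer1 gene were floxed, and in the other 3 (VE-Cadherin-CreERT2 Dicer1WT/WT Apoe-/-, EC-DicerWT) both were intact. The cards measure no mRNA, so Dicer1 itself cannot be checked in these values. Each sample is the total RNA of the aorta of 1 mouse, labelled as a biological replicate. Since the whole aortic wall was measured, fewer endothelial cells and less of a miRNA per endothelial cell cannot be told apart, and copies made by other cells with intact Dicer add to every value.

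MiRNAs are cut from hairpin precursors. Drosha releases the hairpin in the nucleus, Dicer removes its loop in the cytoplasm, and 1 arm of the resulting duplex usually remains in an Argonaute protein as the guide strand. The miR-126 hairpin lies within Egfl7, a gene of endothelial cells, and is best known from endothelium, where miR-126-3p acts on Spred1, Pik3r2 and Vcam1 and where miR-126-5p, the other arm, acts on Dlk1. MiR-221 and miR-222 are transcribed together, and are known to repress the cell cycle inhibitor Cdkn1b and the receptor Kit. They are expressed in endothelial as well as in smooth muscle cells. The comparison asks whether these miRNAs were lower in aortas in which the endothelium had been made deficient in Dicer.

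The sequences below, from RefSeq for GRCm38.p6, show which of the miRNAs can share targets. Bases 2 to 8, the seed that pairs with target mRNAs, are in capitals, and all sequences run 5′ to 3′.
miR-126-3p: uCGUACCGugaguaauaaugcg
miR-221: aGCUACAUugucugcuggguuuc
miR-222: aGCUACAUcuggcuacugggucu

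MiR-126-3p (RefSeq name mmu-miR-126a-3p) lies at chr2:26591402-26591423 on the plus strand. MiR-221 (mmu-miR-221-3p, chrX:19146307-19146329) and miR-222 (mmu-miR-222-3p, chrX:19146901-19146923) lie on the minus strand of the X chromosome, and their hairpins are 504 bases apart and within no other annotated gene. The assay names give no arm for miR-221 and miR-222, and the 3′ arm shown is the one that bore the bare name in earlier nomenclature. The first 8 bases of miR-221 and miR-222 are identical and the sequences then diverge, so that the assays can separate them while the seed is shared. In the same RefSeq set, miR-1928 was the only other mature mouse miRNA with this seed, and no other miRNA had that of miR-126-3p. A mature sequence was found for 3 of the 4 assays, that is, not for miR-126-5p. The annotated hairpin that holds both miR-126 strands has 73 bases and is shown with miR-126-3p, its bases 46 to 67, in capitals. It runs past the end of miR-126-3p, so it is longer than the precursor that Dicer cuts.
Mir126a hairpin: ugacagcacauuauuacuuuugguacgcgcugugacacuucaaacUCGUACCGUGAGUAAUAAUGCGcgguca

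All 4 miRNAs were detected in all 6 aortas, and none differed between the groups after adjustment. In the values as deposited, the cycle threshold (Ct) is the PCR cycle at which the signal crosses a set level, so a lower Ct means more RNA and 1 cycle stands for 1 log2 unit if the product doubles in each cycle. The level is the mean Ct of 5 control RNAs (snoRNA135, snoRNA202, U6, U87 and Y1) minus the Ct of the miRNA. On this log2 scale EC-Dicerflox aortas differed from EC-DicerWT aortas by -0.13 ± 0.32 (SE) in miR-126-3p, 0.25 ± 0.35 (SE) in miR-126-5p, -0.40 ± 0.28 (SE) in miR-221 and -0.42 ± 0.38 (SE) in miR-222. The adjusted limma P was 0.99 for each of them. Of the 439 miRNA assays tested, 0% had an adjusted P under 0.05 and 4.78% an unadjusted one, against 0 of the 4 under either threshold. The groups overlapped in the level of each of the 4, whereas 9.79% of the tested assays had levels without overlap.

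MiR-126-3p, the guide strand of endothelium, had the earliest Ct of the 4. Its raw Ct was 17.596, 17.660 and 17.760 in EC-Dicerflox replicates 1, 2 and 3 and 17.246, 17.455 and 17.443 in EC-DicerWT replicates 1, 2 and 3. Every EC-Dicerflox aorta thus had a later Ct than every EC-DicerWT aorta, by 0.29 cycles on average, and such a raw shift without overlap was seen in 8.66% of the tested assays. Among the control RNAs, U6 differed by -0.22 cycles (earlier in EC-Dicerflox), and snoRNA202, snoRNA135, Y1 and U87 by 0.15, 0.21, 0.32 and 0.34 cycles. Their mean Ct was 0.16 cycles later in EC-Dicerflox aortas. After their subtraction the levels were 1.84, 2.21 and 2.60 in EC-Dicerflox and 2.32, 1.99 and 2.73 in EC-DicerWT aortas, and the groups overlapped. The means were 2.22 ± 0.38 (SD, n = 3) for EC-Dicerflox against 2.35 ± 0.37 (SD, n = 3) for EC-DicerWT, so that EC-Dicerflox aortas held 91.4% of the EC-DicerWT level, with a 95% confidence interval from 52.1% to 160.4% by limma (unadjusted P of 0.70).

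The spread of miR-126-3p was larger after normalisation than before. The SD of its Ct was 0.083 cycles in EC-Dicerflox and 0.12 cycles in EC-DicerWT aortas, whereas the mean Ct of the control RNAs ranged from 19.4 to 20.4 over the 6 samples and was latest in replicate 3 of each group. Accordingly, the level of miR-126-3p was highest in the third replicate of each group, by 0.57 log2 units over replicates 1 and 2 in EC-Dicerflox and by 0.57 in EC-DicerWT. With raw Ct values and no control RNA, a setting chosen after the data were seen, the change was -0.29 ± 0.25 (SE) with an adjusted limma P of 0.98. With U6 alone as reference it was -0.51 ± 0.46 (SE) with an adjusted limma P of 0.83. U6 alone lowered the change of every assay alike, and the median over all tested assays was then -0.48, against -0.10 with the 5 control RNAs. The sign of the miR-126-3p change was not fixed, since leaving out EC-Dicerflox replicate 1 gave 0.057 and leaving out EC-DicerWT replicate 3 gave 0.059.

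MiR-126-5p, which comes from the other arm of the same hairpin, was the only one of the 4 with a higher mean in EC-Dicerflox aortas. Its Ct was 20.966, 20.394 and 20.848 in EC-Dicerflox and 20.552, 20.650 and 21.268 in EC-DicerWT replicates 1, 2 and 3. The levels were -1.53, -0.52 and -0.49 in EC-Dicerflox and -0.98, -1.20 and -1.10 in EC-DicerWT aortas. The EC-DicerWT values lay close together and within the range of EC-Dicerflox, where replicate 1 was the lowest of all 6 samples and replicates 2 and 3 the highest. The estimate was 119% of the EC-DicerWT level, with a 95% confidence interval from 64.1% to 220.1% (unadjusted limma P of 0.51). Without EC-Dicerflox replicate 1 the change was 0.59 ± 0.23 (SE, unadjusted limma P of 0.056), and in replicates 1 and 2 alone it was 0.07. With U6 alone as reference, which lowered the change of every assay alike, its sign turned, to -0.13.

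**Figure D1:**
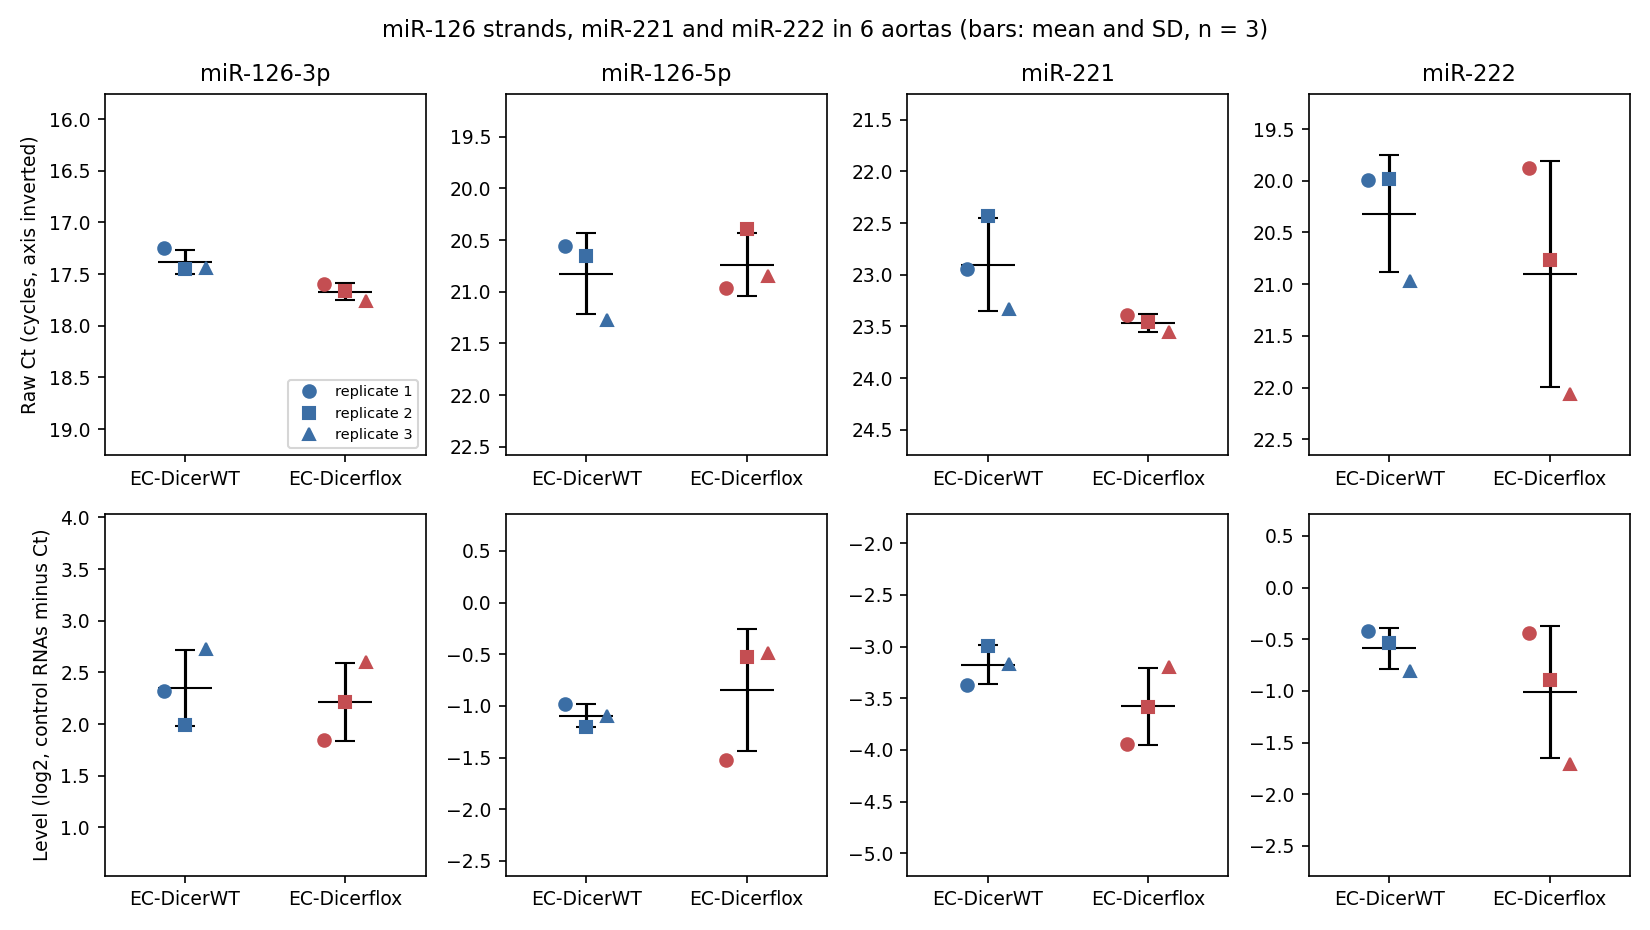
Raw Ct (upper row, inverted, in cycles) and level relative to the control RNAs (lower row, log2) of the 4 miRNAs in each aorta, with the mean and SD of each group (n = 3) as bars. The raw Ct of miR-126-3p and miR-221 was later in EC-Dicerflox without overlap, as in 8.66% of the tested assays, while all 4 levels overlapped. MiR-222 was lowest in the third replicate of each group on both scales.

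MiR-221 had the latest Ct of the 4 in every sample. The study's text cites it among miRNAs with a faster turnover after Dicer silencing in endothelial cells. Its Ct was 23.385, 23.455 and 23.556 in EC-Dicerflox and 22.942, 22.435 and 23.332 in EC-DicerWT replicates 1, 2 and 3, again later in every EC-Dicerflox aorta. Such a raw shift without overlap was seen in 8.66% of the tested assays. The median change of all tested assays with raw Ct was -0.26. The levels were -3.95, -3.58 and -3.20 in EC-Dicerflox and -3.37, -2.99 and -3.16 in EC-DicerWT aortas. Replicates 1 and 2 of EC-Dicerflox were the lowest of the 6, and replicate 3 lay among the EC-DicerWT aortas. The estimate was 75.7% of the EC-DicerWT level with a 95% confidence interval from 46.5% to 123.3% (unadjusted limma P of 0.21). The change was negative in all 19 alternative fits, from -0.78 with U6 alone to -0.22 without EC-Dicerflox replicate 1. Some of these fits could not move it. Other detection filters and variance models, a replicate block and a term for the third replicates left it at -0.40 by construction. U6 alone lowered the change of every assay alike. The smallest unadjusted limma P of miR-221 was 0.085, with U6 and snoRNA135 as reference. A negative sign was common, since 61.7% of the tested assays had a change below 0.

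MiR-222, the neighbour of miR-221, was the most variable of the 4. Its Ct was 19.878, 20.767 and 22.061 in EC-Dicerflox and 19.993, 19.986 and 20.974 in EC-DicerWT replicates 1, 2 and 3. The levels were -0.44, -0.90 and -1.70 in EC-Dicerflox and -0.42, -0.54 and -0.81 in EC-DicerWT aortas. The third replicate of EC-Dicerflox stood apart as the lowest, and replicate 1 had about the level of EC-DicerWT replicate 1. In contrast to miR-126-3p, miR-222 was lower in the third replicates, by -1.04 log2 units against replicates 1 and 2 in EC-Dicerflox and by -0.32 in EC-DicerWT. The estimate was 74.6% of the EC-DicerWT level with a 95% confidence interval from 38.1% to 146.02% (unadjusted limma P of 0.32). It rested in part on EC-Dicerflox replicate 3, without which the change was -0.08, and in replicates 1 and 2 alone it was -0.19. It was larger, -0.71, without EC-Dicerflox replicate 1, and -0.80 with U6 alone as reference, which lowered the change of every assay alike. Relative to the control RNAs, the lowest EC-Dicerflox level of miR-222 was in replicate 3 and that of miR-221 in replicate 1, whereas in raw Ct both were latest in replicate 3.

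The third replicates of both groups differ from the other samples in part of the profile, and what sets them apart is not given in the sources used here. Each group holds 1 of them, so a term for them left the estimates as they were. With this term the unadjusted limma P was 0.59 for miR-126-3p, 0.52 for miR-126-5p, 0.19 for miR-221 and 0.19 for miR-222. Among the control RNAs, snoRNA135, snoRNA202, U87 and Y1 were latest in the third replicate of each group. U6 was not, with a mean Ct of 15.48 in EC-Dicerflox replicate 3 against 15.56 in replicate 2, and in EC-DicerWT it was earliest in replicate 3 (15.38).

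**Figure D2:**
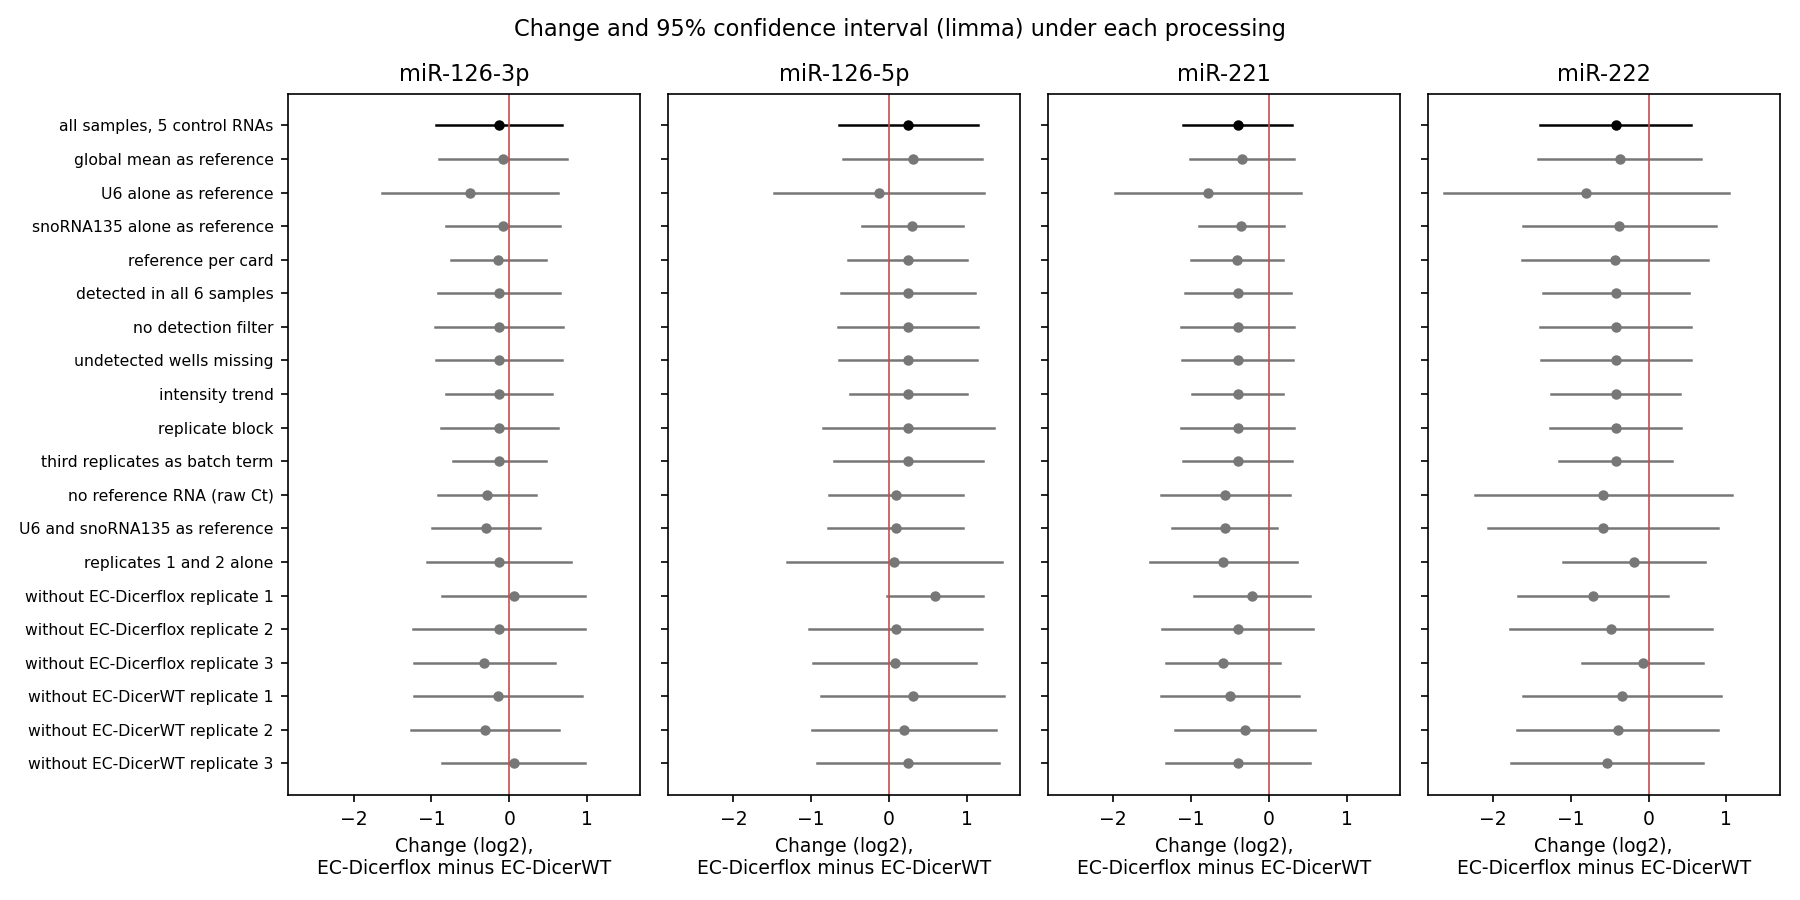
Change of each miRNA on the log2 scale (EC-Dicerflox minus EC-DicerWT, points) with its 95% confidence interval from limma (lines), for all samples with 5 control RNAs (black) and for 19 alternatives (grey). Every interval includes 0, and the estimates of miR-221 and miR-222 lie below 0 throughout. Detection filters, variance models and terms for the replicates leave the estimates as they were by construction. U6 alone lowers all estimates alike.

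Ratios within a sample need no control RNA, and 4 of them were tested by permuting the group labels in all 20 ways (exact permutation test, two-sided), which allows no P below 0.1. The ratios are given on the log2 scale as differences of Ct, and their absolute size also depends on the efficiency of each assay, which was not measured, so only differences between samples are read. All P values were 1 after Benjamini-Hochberg adjustment over the 4 ratios. The strands of miR-126 were compared first. The level of miR-126-5p relative to miR-126-3p was -3.37, -2.73 and -3.09 in EC-Dicerflox and -3.31, -3.20 and -3.83 in EC-DicerWT aortas. EC-Dicerflox replicate 1 lay among the EC-DicerWT values, and replicates 2 and 3 were above them. The means were -3.06 ± 0.32 (SD, n = 3) for EC-Dicerflox against -3.44 ± 0.34 (SD, n = 3) for EC-DicerWT, a difference of 0.38 ± 0.27 (SE) or 1.30-fold (exact permutation P = 0.3). It remained positive when any replicate was left out, from 0.19 to 0.53.

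The ratio of the cluster mates differed more between mice of the same group than between the groups. MiR-222 relative to miR-221 was 3.507, 2.688 and 1.495 in EC-Dicerflox and 2.95, 2.45 and 2.36 in EC-DicerWT aortas. The EC-Dicerflox values thus spanned 2.01 log2 units, a range that enclosed all EC-DicerWT values, which spanned 0.59. The difference between the means was -0.02 ± 0.61 (SE, exact permutation P = 1), and its sign turned without EC-Dicerflox replicate 3 (0.51).

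Citing an earlier report on Dicer silencing in endothelial cells, the study's text places miR-221 and miR-126-3p in opposite turnover classes. Here whole aortas were measured. MiR-221 relative to miR-126-3p was -5.789, -5.795 and -5.796 in EC-Dicerflox and -5.696, -4.980 and -5.889 in EC-DicerWT aortas. The EC-Dicerflox values lay within 0.007 log2 units of each other, whereas the EC-DicerWT values spanned 0.91 and were set apart by replicate 2. The difference of -0.27 ± 0.28 (SE) had an exact permutation P of 0.6, and without EC-DicerWT replicate 2 it was -0.00083. In the faster class, all 11 miRNAs listed here, miR-221 included, had a change below 0, with a median of -0.28. Of all tested assays 61.7% were below 0. Apart from miR-103, miR-221 and miR-27b, these 11 are all members of the let-7 family. They are therefore not 11 separate observations, and no test was made of the class. MiR-98, also counted with the let-7 family, was left out of the list. Its level was lower without overlap, with a change of -2.67 ± 0.87 (SE, unadjusted limma P of 0.026) at a mean Ct of 28.7. The levels of 4 of these 11 (let-7b, let-7d, let-7i and miR-103) were lower without overlap, as were those of 31 of the 439 tested assays. Of the 11 only miR-103 had an unadjusted limma P under 0.05 (0.034), against 4.78% of all tested assays. Of the 4 slower ones, miR-126-3p included, 3 had a change below 0, with a median of -0.12, against -0.10 for all tested assays. None had an adjusted P under 0.05.

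**Figure D3:**
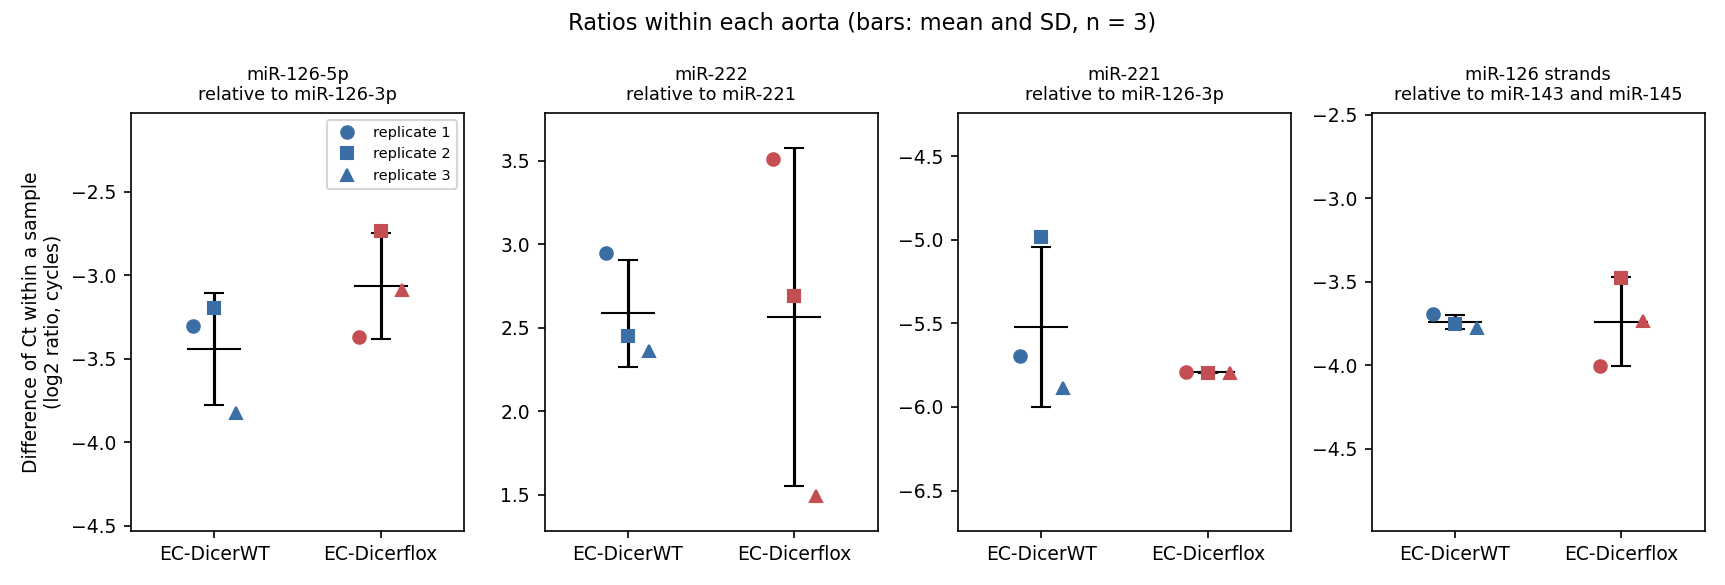
Log2 ratios within each aorta (differences of Ct, in cycles), with the mean and SD of each group (n = 3) as bars. The groups overlapped in all 4 ratios. MiR-221 relative to miR-126-3p was almost the same in the EC-Dicerflox aortas, and miR-222 relative to miR-221 ranged from 1.495 to 3.507 in them.

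The aorta was checked against markers of its cells. MiR-145 and miR-143, which mark smooth muscle, had mean Ct values of 14.7 and 16.2, and the leukocyte markers miR-142-3p, miR-142-5p, miR-150 and miR-223 were detected in every sample, as were miR-451 and miR-486 of erythrocytes. The mean level of the miR-126 strands relative to that of miR-143 and miR-145 was -3.74 ± 0.27 (SD, n = 3) for EC-Dicerflox against -3.74 ± 0.041 (SD, n = 3) for EC-DicerWT (difference 0.0017, exact permutation P = 1). This difference averages opposite changes, -0.13 in miR-126-3p and 0.25 in miR-126-5p, and -0.10 in miR-143 and 0.21 in miR-145. It therefore does not describe either strand alone. Single values were -4.01, -3.48 and -3.74 in EC-Dicerflox and -3.70, -3.75 and -3.78 in EC-DicerWT replicates 1, 2 and 3, and those of EC-DicerWT lay within the range of EC-Dicerflox. Summed on the linear scale relative to the control RNAs, the 2 smooth muscle miRNAs ranged from 40.5 to 66.5 in EC-Dicerflox and from 38.8 to 55.3 in EC-DicerWT aortas, and the 4 leukocyte miRNAs from 1.69 to 2.95 and from 2.04 to 3.32. Of the 6 epithelial miRNAs (the miR-200 family and miR-205), 5 had a change below 0, with a median of -1.02. Over all tested assays 61.7% were below 0, with a median of -0.10. All 6 overlapped between the groups, with unadjusted limma P from 0.099 to 0.90 and mean Ct from 25.7 to 30.2. The epithelial sum ranged from 0.031 to 0.067 in EC-Dicerflox and from 0.052 to 0.20 in EC-DicerWT aortas. Of the 6 striated muscle miRNAs 4 were tested. MiR-208 had a change of -1.65 ± 0.53 (SE, unadjusted limma P of 0.024) at a mean Ct of 31.6. An unadjusted P under 0.05 was found in 4.78% of all tested assays. MiR-1, miR-133a and miR-133b changed by -0.15, 0.07 and 0.23. The erythrocyte sum ranged from 1.19 to 1.71 in EC-Dicerflox and from 0.97 to 1.60 in EC-DicerWT aortas. In an adipose list only miR-143, also listed for smooth muscle, was tested (change -0.10). None of these markers had an adjusted limma P under 0.05. Their part in the values of the 4 miRNAs was not tested.

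None of the other miRNAs studied in endothelium and vessel growth passed the adjusted threshold. Of a list of 32, 31 were in the table, and 32 of their 34 assays were tested. A change below 0 was found in 25 and above 0 in 7, with a median of -0.10. Over all tested assays 271 of 439 (61.7%) were below 0, with a median of -0.10 as well. At the unadjusted threshold of 0.05 only miR-103 passed in the list, against 4.78% of all tested assays. The anti-inflammatory miR-146a changed by -0.0043, miR-92a of the miR-17-92 cluster by -0.07, and the hypoxia-induced miR-210 by -0.07. Levels without overlap were found for 3 assays of the list, lower for miR-103 and higher for miR-10a and for miR-322 on card B, against 31 lower and 12 higher of the 439 tested assays. MiR-10a, known to restrain inflammation in endothelium, changed by 1.19 ± 0.81 (SE, unadjusted limma P of 0.20), and its raw Ct overlapped between the groups. MiR-322 changed by 0.75 on card B (unadjusted limma P of 0.070) and by -0.007 on card A. MiR-1928, which shares the seed of miR-221 and miR-222, was a weak signal with a mean Ct of 33.1 and changed by 0.40 ± 0.51 (SE, unadjusted limma P of 0.47).

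**Figure D4:**
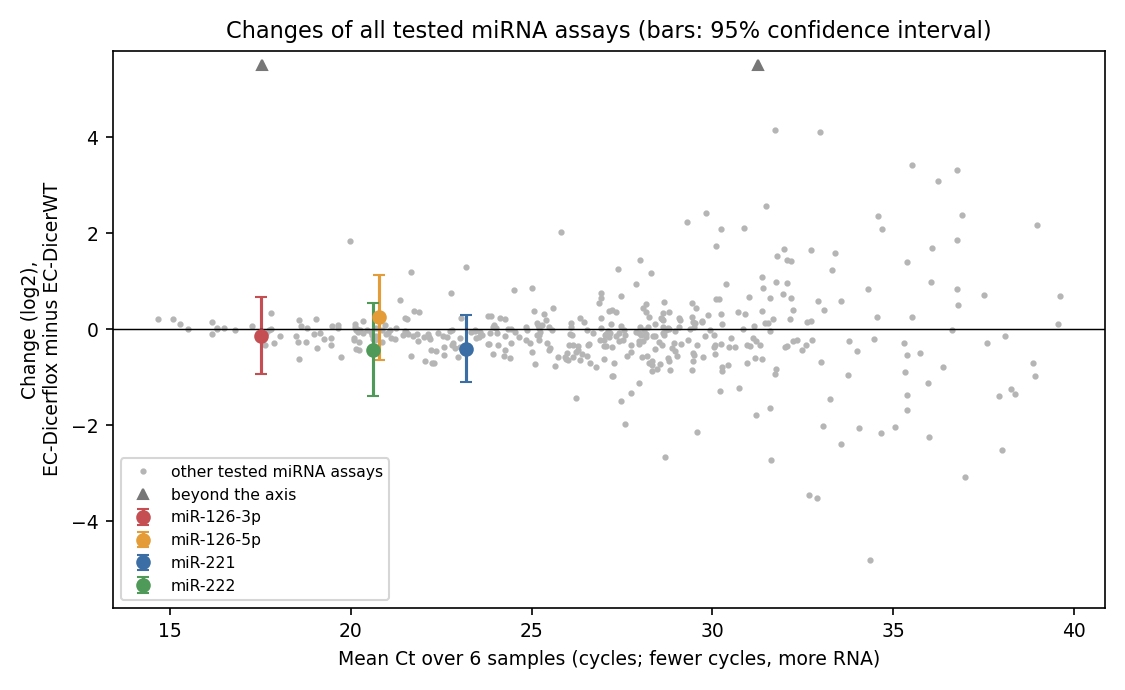
Change on the log2 scale against the mean Ct of each tested miRNA assay, with the 4 miRNAs in colour and their 95% confidence intervals as bars. The 4 lie within the cloud of the other 435 assays, of which 2 beyond 5.5 log2 units are drawn as triangles at the edge.

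Counted from the earliest mean Ct, which also depends on each assay's efficiency, the 4 miRNAs were at rank 12 (miR-126-3p), 57 (miR-222), 61 (miR-126-5p) and 110 (miR-221) of the 439 tested assays. In every sample miR-126-3p had the earliest and miR-221 the latest Ct of the 4, whereas miR-126-5p and miR-222 lay close together and exchanged places between samples. The SD of the level within groups was 0.30 for miR-221, 0.37 for miR-126-3p, 0.42 for miR-126-5p and 0.47 for miR-222, against a median of 0.29 over the 144 assays with a mean Ct under 25. By increasing SD, miR-222 was at rank 117 of these 144.

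How closely another miRNA followed each of the 4 was described by the SD over the 6 samples of the difference of their Ct values, which is free of any reference, for 393 other assays detected in all samples. MiR-126-3p was followed most closely by miR-532-3p (0.072 cycles), let-7f (0.11) and miR-24 (0.11). The other strand of its hairpin, miR-126-5p, was at rank 115 (0.36 cycles), with a median over all partners of 0.55 cycles. The closest to miR-126-5p were miR-335-5p (0.12), miR-411 (0.15) and miR-2135 (0.16), with miR-126-3p at rank 45.

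MiR-221 was followed most closely by miR-467a on card A (0.13 cycles), let-7e (0.16) and miR-495 (0.17). Its cluster mate miR-222 came at rank 240 (0.67 cycles), behind miR-126-3p at rank 78, with a median over all partners of 0.50 cycles. MiR-222 was closest to miR-872 (0.17), miR-339-3p (0.26) and miR-23a (0.26), and miR-221 was at rank 171 of its partners. Neither the strands of 1 hairpin nor the cluster mates were thus among the closest partners in these 6 samples. The SD contains the measurement error of both assays, so it is not a measure of the biology alone. The partners named were picked as the 3 smallest SDs of 393 over only 6 samples. All but 1 of them (miR-2135) were on the same card as the 4 miRNAs, which held 335 of the 596 miRNA assays.

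**Figure D5:**
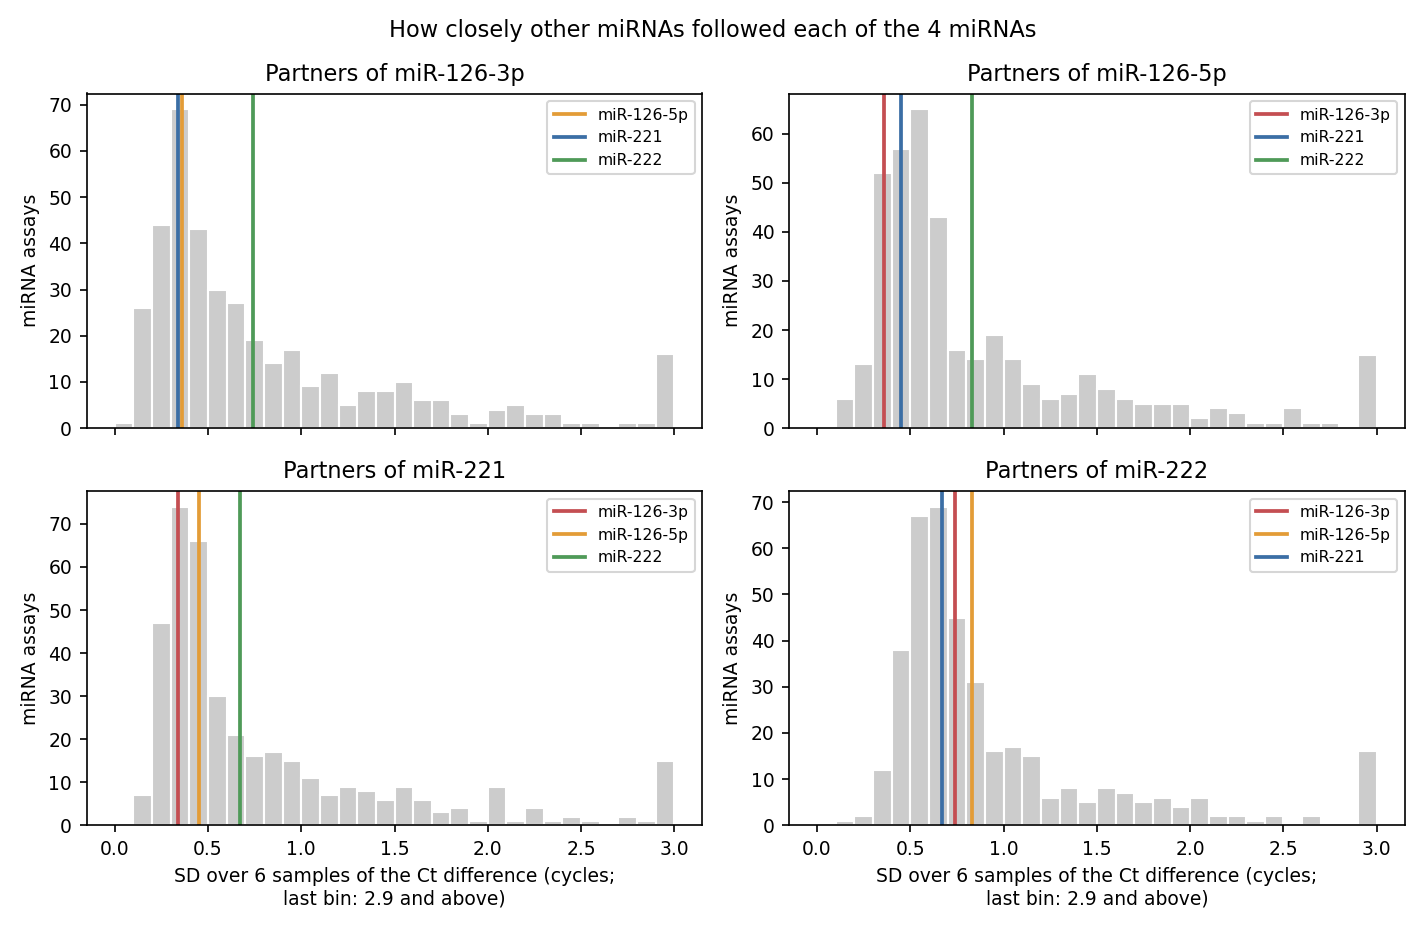
Histograms of the SD over 6 samples of the Ct difference (in cycles) between each of the 4 miRNAs and 393 other assays detected in all samples, with the other 3 miRNAs as coloured lines. Smaller values mean closer partners. MiR-222 lies to the right of the peak in the panels of the other 3.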

How the data were processed

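Per the study's methods, RNA of 6 aortas underwent reverse transcription and preamplification (Megaplex rodent pools) before loading onto TaqMan MicroRNA cards. The authors deposited raw Ct values without a reference RNA, in 1 column per mouse, where 40 stands for an undetected assay. How baseline and threshold were set is not given in the sources used here. The table held 608 rows, 596 of them mouse miRNA assays; all 4 miRNAs described are on card A, judged by the length of the assay number. Ct values carry no read depth; precision is limited by 3 mice per group.

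Levels were the mean Ct of 5 control RNAs (averaged over the cards) minus the Ct. The 439 assays with a Ct under 40 in at least 3 samples were fitted with limma 3.58.1 under R 4.3.3 (lmFit, then eBayes; two-sided, no covariate), and P values were adjusted over all of them by the Benjamini-Hochberg method. Intervals are limma's at 95%. Exact permutation tests were run in scipy 1.17.1. The fit was tested on simulated data. The miRNAs, lists and tests were chosen with earlier results of these data known. Named were the 4 miRNAs, miRNAs of their seed, members of the marker, endothelial and turnover lists, miR-98, and the 3 closest partners of each of the 4.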

Additional observations from a re-analysis of the deposited data

How the results depend on the processing

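The alternatives were other references, detection filters and variance models, a term for the third replicates, a replicate block, and the omission of single replicates; raw Ct, U6 with snoRNA135 and, for single miRNAs, replicates 1 and 2 alone were added after the data were seen. None of the 4 miRNAs had an unadjusted or adjusted limma P under 0.05 in any of the 19 fits. These include the fits that left out each replicate.

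When each replicate was left out, the change of miR-126-3p ranged from -0.319 to 0.059 (0.057 without EC-Dicerflox replicate 1, 0.059 if EC-DicerWT replicate 3 was omitted), that of miR-126-5p from 0.071 to 0.588, that of miR-221 from -0.589 to -0.217 and that of miR-222 from -0.711 to -0.077. With U6 alone, which lowered the change of every assay alike, miR-126-5p turned to -0.129. The strand ratio ranged from 0.187 to 0.531, miR-222 relative to miR-221 from -0.494 to 0.512 (0.512 without EC-Dicerflox replicate 3, 0.160 without EC-DicerWT replicate 1, and 0.399 in replicates 1 and 2 alone), and miR-221 relative to miR-126-3p from -0.455 to -0.00083. The miR-126 strands relative to miR-143 and miR-145 ranged from -0.130 to 0.135 (-0.130 without EC-Dicerflox replicate 2, -0.0041 without EC-DicerWT replicate 2, -0.0153 without EC-DicerWT replicate 3, and -0.0165 in replicates 1 and 2 alone). The cause was not tested. Each value that turned sign was smaller than the SD of the EC-Dicerflox group.

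Of the tested assays, 21 had an unadjusted P under 0.05, 11 with U6 alone, 14 with raw Ct and 28 with a term for the third replicates. When single replicates were omitted the count was between 8 and 22. The share of lower ones was 81.0% with the 5 control RNAs, 100% with U6 alone, with raw Ct also 100%, and 95% with U6 and snoRNA135. It was 75% with the global mean, 78.6% with snoRNA135 alone and 80% with a reference per card. In replicates 1 and 2, with the 5 control RNAs, it was 52.9%. The reference also moved the median change of all tested assays. It was -0.10 with the 5 control RNAs, -0.48 with U6 alone, -0.26 with raw Ct and -0.27 with U6 and snoRNA135. With the global mean it was -0.05, with snoRNA135 alone -0.05 and with a reference per card -0.11. The shares were thus highest with U6 alone, raw Ct, and U6 with snoRNA135, and varied less among the other references.

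With a replicate block the changes were those given above, with unadjusted limma P values of 0.64 for miR-126-3p, 0.54 for miR-126-5p, 0.18 for miR-221 and 0.22 for miR-222, and 17 tested assays passed the unadjusted threshold. The deviations of samples with the same number correlated by 0.15, -0.06 and 0.31 over the tested assays for replicates 1, 2 and 3. The mice were treated as unpaired because the study's methods state no covariate for the array comparison. Ratios with the replicate block had the same differences.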
